A study of Homo sapiens with 6 samples.

Results

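The spliceosome is the RNA and protein machine that removes introns from pre-mRNA. The 52 genes described here encode core protein components of it, in 11 classes: the U1 snRNP, the Sm ring, the U2 snRNP, SF3a, SF3b, the U4/U6 snRNP and tri-snRNP, the U5 snRNP, the LSm ring, the factors that recognise the 3' splice site, the helicases, and the PRP19 complex with CWC22. They were listed by function, out of 58288 gene identifiers in the count table, and all 52 passed the filter on low counts that left 14415 genes for testing. SF3B4 and SNRPA were selected on their lower counts in these same libraries, SF3B4 with the siRNA si-circ235-1 and SNRPA with si-circ235-2, so both are described against their complexes with no test, and every count of tested genes is over the other 50.

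T24 cells, an established human bladder cancer line, were transfected with a control siRNA (NC) or with si-circ235-1 or si-circ235-2, and each of the 3 conditions has 2 libraries. Both siRNAs were directed at the looping site of circ235, a circular RNA made from CCNY exons, to ask what it controls downstream. Oligo dT beads were used to select mRNA and the sequencing was not strand-specific, so circ235, which has no poly(A) tail, has no value here. The labels call the libraries biological replicates without naming separate cultures, and p-values therefore measure only the spread between these samples, which may be technical.

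Libraries held 15373992 to 19912893 counts. Of 15 urothelial markers, 6 or 7 reached 1 CPM (counts scaled to a common library size) in each library, with a summed level of 3112 to 5593 CPM that came almost wholly from KRT7, KRT8 and KRT18 and was lowest in the si-circ235-2 libraries, while KRT20 and UPK3A were at 0 throughout. Leukocyte markers summed to 2.06 to 11.2 CPM, highest in the si-circ235-1 libraries through CD14, with PTPRC and CD3E at 0 in all 6 libraries, and endothelial markers summed to 0.978 to 2.79 CPM. NC replicate 1 stood apart from NC replicate 2 for the spliceosome genes: 34 of 52 were higher in it, among them all 7 Sm genes and 6 of 7 LSm genes, and the ratio between the replicates ran from 0.749 for SNRNP200 to 2.22 for LSM7. Across the 52 genes this ratio had a Spearman rho of -0.66 with transcript length, so results against NC are given below with and without that library. Replicates also differed over the whole set of genes. A chi-square for the difference between replicates, per degree of freedom, was 35.4 for the NC pair over 14200 genes. Its expected counts came from library totals. It gives no direction and rests most on genes with many counts. The si-circ235-2 pair had 23.5 over 14299 genes, and the pair of the other siRNA had 27.7 over 14021. The share of all genes that were higher in NC replicate 1, and their rho with length, are not reported here.

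Splicing proceeds by the ordered assembly of small nuclear ribonucleoproteins (snRNPs), each an snRNA bound by proteins. The U1 snRNP pairs with the 5' splice site, SF1 and the U2AF heterodimer bind the branch point and the 3' splice site, and the U2 snRNP with SF3a and SF3b then takes the branch point. The U4/U6 and U5 snRNPs join as the tri-snRNP, and helicases rearrange the RNA until the intron is excised. A ring of 7 Sm proteins sits on the U1, U2, U4 and U5 snRNAs, and a ring of 7 LSm proteins on U6. Every dividing cell needs these genes, and SF3B1 and U2AF1 are known sites of recurrent mutation in cancer.

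Levels of different genes were compared as CPM per kilobase of the longest protein-coding transcript. In the NC libraries SNRPD2 had the highest level, 606 ± 148 CPM per kilobase (SD, n = 2), followed by SNRPB with 542 ± 146 and SF3B5 with 317 ± 74.5. The order of SNRPD2 and SNRPB, which both encode ring proteins shared by several snRNPs, did not exceed their spread, nor did that of SF3B5 and LSM7, at 274 ± 147. SF3B4 ranked 18 and SNRPA 14 of the 52. CWC22 with 6.72 ± 0.459, LSM6 with 6.57 ± 0.764 and U2AF1 with 1.01 ± 0.184 closed the order, and CWC22 and LSM6 differed by less than their spread. U2AF1, which recognises the AG of the 3' splice site, had 18 to 87 counts in a library. These were 29 and 24 in NC, 18 and 24 with si-circ235-1, and 31 and 87 with si-circ235-2. A near-identical copy, U2AF1L5, had 0 to 5 counts. Reads that fit both copies cannot be assigned, so the values of U2AF1 are uncertain.

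**Figure D1:**
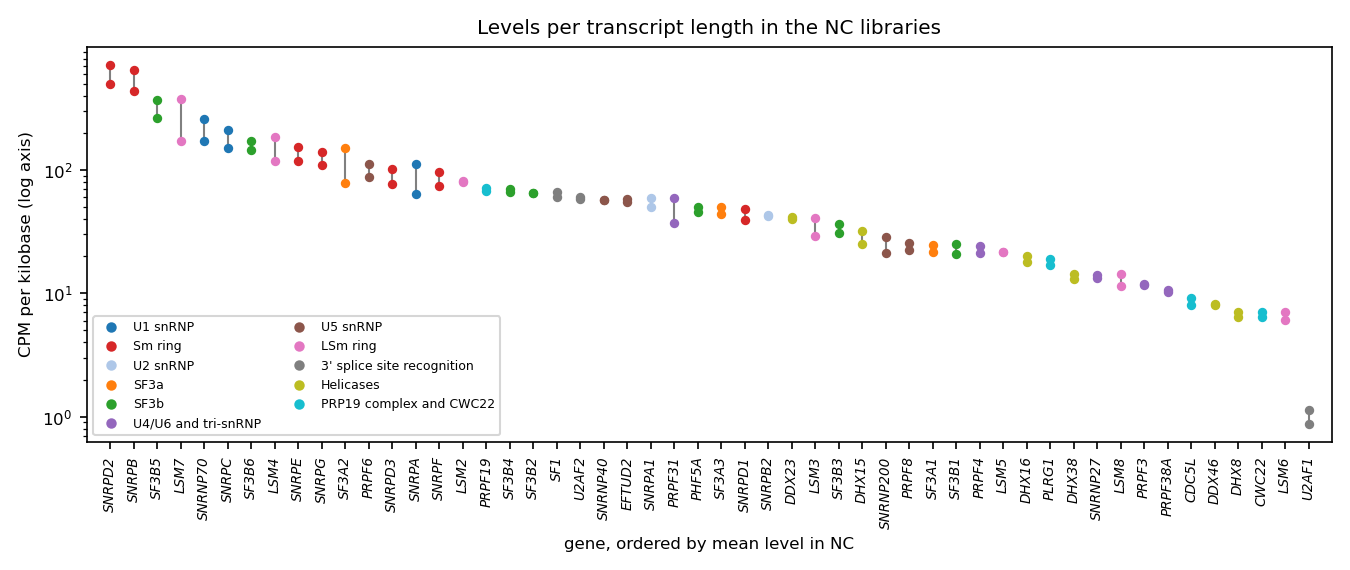
Level of each of the 52 genes in the NC libraries, in CPM per kilobase of coding transcript on a log axis, ordered by mean; the 2 points of a gene are the 2 libraries and colours mark the class. SNRPD2 and SNRPB head the order at 606 and 542 CPM per kilobase on average and U2AF1 closes it at 1.01.

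With si-circ235-1, 1 of the 50 tested genes fell and 0 rose, at an adjusted p under 0.05 in edgeR's quasi-likelihood test, where 3.64% of all 14415 genes fell and 2.24% rose (5.88% in all). The median log2 fold change of the 52 genes was -0.03, against -0.03 over all genes tested. Both libraries lay above both NC libraries for 16 of the 52 and below them for 16, where 26.2% and 28.8% of all genes did. With si-circ235-2, 21 of the 50 fell and 4 rose, where 15.7% of all genes fell and 15.7% rose (31.4% in all), and the median was -0.39 against 0.00 over all genes. Here 12 of the 52 had both libraries above NC and 30 below it, where 36.4% and 35% of all genes did. The fall took in all 7 Sm genes, 6 of 7 LSm genes and both tested genes of the U1 snRNP, and the 4 that rose were SNRNP200, PRPF8, DHX8 and SF3A1. Without NC replicate 1, 4 of the 50 fell with si-circ235-2 and 0 rose, where 2.23% of all genes fell and 2.86% rose, and the 4 were SF3A2, PRPF31, SF3B6 and LSM7. The siRNAs were each set against the same NC libraries, so the 2 comparisons are not independent. Statements below on both comparisons, such as libraries on opposite sides of NC, are descriptions that share the NC libraries. A CPM is a share of the sequenced RNA, and bulk RNA cannot tell fewer cells holding an mRNA from less of it per cell.

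**Figure D2:**
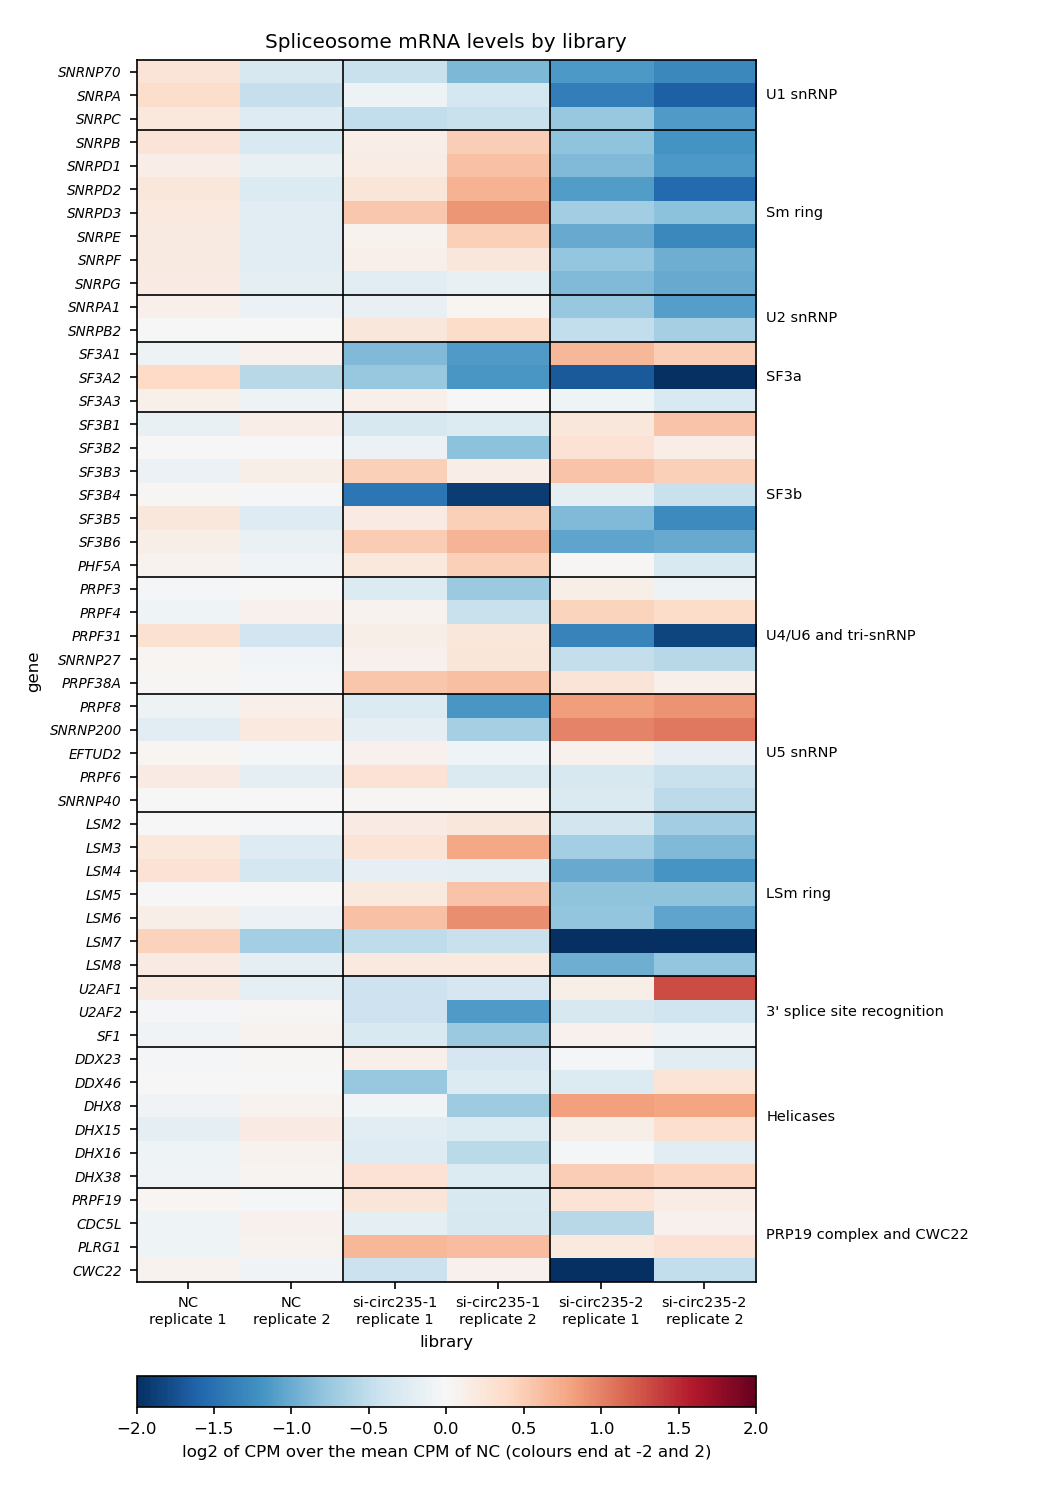
Level of each of the 52 genes in each library as log2 of its CPM over the mean CPM of NC, with genes in rows by class and the 6 libraries in columns. Blue is lower and red higher than NC; the rows of the Sm and LSm rings are blue in both si-circ235-2 libraries, and SF3B4 is darkest in the si-circ235-1 libraries.

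SF3B4, an RNA-binding subunit of SF3b that contacts pre-mRNA near the branch point, lies at chr1:149923317-149928344 on the minus strand of GRCh38. It had 145 and 139 CPM in NC, 52.2 and 38.2 with si-circ235-1, and 124 and 104 with si-circ235-2. Both si-circ235-1 libraries were far below the other 4, and those of si-circ235-2 lay just below NC. The log2 fold change was -1.65 with si-circ235-1, the lowest of the 52 genes, and -0.31 with si-circ235-2. Since the gene was picked for this pattern, these values are a description.

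The other 6 SF3b subunits did not share the low level of SF3B4 under si-circ235-1. Their log2 fold changes ran from -0.43 for SF3B2 to 0.60 for SF3B6, and 0 of the 6 passed the test. SF3B1, the scaffold that holds the branch point helix, had 136 and 165 CPM in NC, 120.1 and 124 with si-circ235-1, and 176 and 224 with si-circ235-2. SF3B2, which binds SF3B4, had 213 and 212, then 197 and 119.8, then 259 and 233 CPM. SF3B3, a large propeller protein of the complex, had 300.1 and 352, then 454 and 359, then 486 and 455. None of these 3 passed the test against NC with either siRNA, although the libraries of each siRNA lay outside the NC range for all of them.

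The small subunits SF3B5 and SF3B6 went with the rings under si-circ235-2. SF3B5 had 256 and 183 CPM in NC, 247 and 304 with si-circ235-1 and 119.3 and 91.1 with si-circ235-2, a log2 fold change of -1.06 ± 0.23 (SE, adjusted p = 0.0071). SF3B6, which lies beside the branch point adenosine, had 133 and 112, then 175 and 197, then 58.9 and 61.0, with -1.03 ± 0.18 (adjusted p = 0.0035) under si-circ235-2. For SF3B6 the si-circ235-1 libraries were above both NC libraries, and those of si-circ235-2 were below them. PHF5A, a small zinc-binding subunit, had 54.2 and 49.5, then 59.9 and 72.1, then 52.6 and 42.0 CPM, and did not pass the test with either siRNA. The fall of SF3B5 did not pass without NC replicate 1 (-0.80, adjusted p = 0.077), while that of SF3B6 did (-0.91, adjusted p = 0.040). With a trend over length and GC content of transcripts removed from each library, SF3B5 had -0.47 (adjusted p = 0.034) and SF3B6 -0.65 (adjusted p = 0.0072).

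Within a library, SF3B4 can be set against its complex with no scaling between libraries. Its level per kilobase was 1.21 times the median of the other 6 subunits in both NC libraries, 0.433 and 0.355 times with si-circ235-1, and 0.942 and 0.847 times with si-circ235-2. The summed level of all 7 subunits was 778 and 648 CPM per kilobase in NC, 789 and 872 with si-circ235-1, and 513 and 452 with si-circ235-2, where it was lowest. The sum of CPM without division by length ran from 1211 to 1305 over the 6 libraries.

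**Figure D3:**
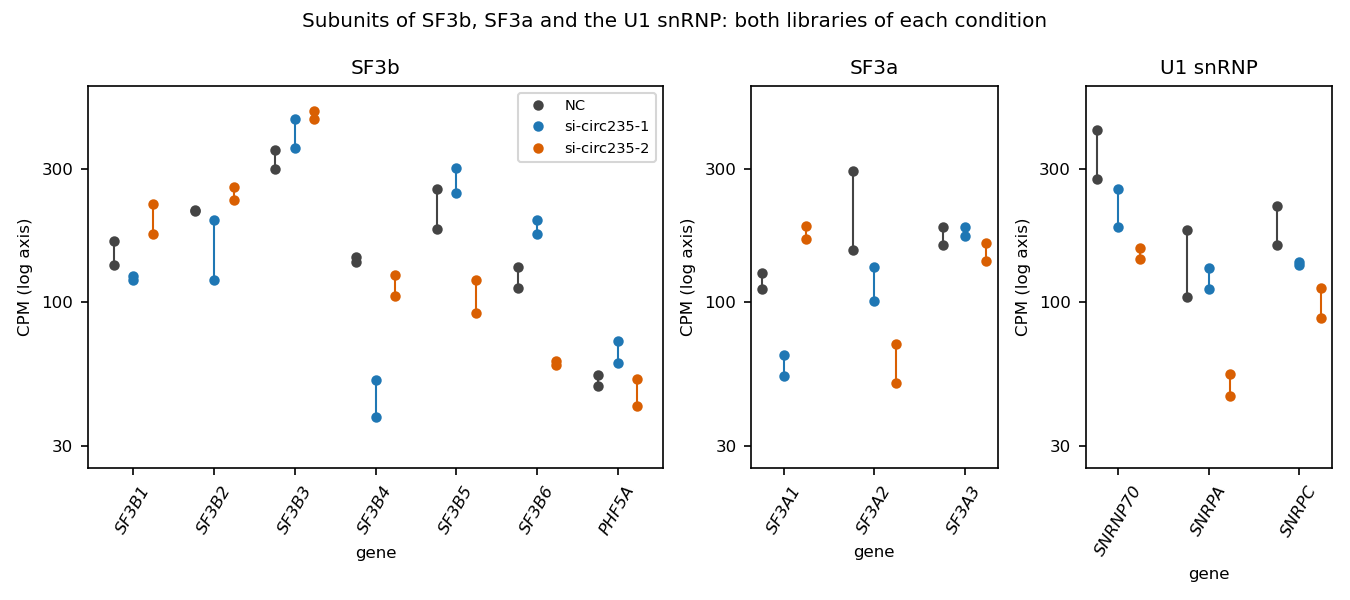
CPM of the subunits of SF3b, SF3a and the U1 snRNP on a log axis, with the 2 libraries of each condition as points joined by a line. SF3B4 stands at 38.2 and 52.2 CPM with si-circ235-1 and SNRPA at 45.7 and 54.8 with si-circ235-2, and SF3A1 lies below NC with the former siRNA and above it with the latter.

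SNRPA encodes a protein that binds a stem loop of the U1 snRNA, and lies at chr19:40750637-40765389 on the plus strand. It had 181 and 104 CPM in NC, 132 and 111 with si-circ235-1, and 54.8 and 45.7 with si-circ235-2. The si-circ235-2 libraries were below the other 4, and those of si-circ235-1 lay between the NC libraries. Its log2 fold change was -1.50 with si-circ235-2 and -0.23 with si-circ235-1. Without NC replicate 1 these values were -1.06 and 0.23. With the trend of each library over length and GC content of transcripts removed, they were -0.98 and -0.04. Here too the values are a description, since the gene was picked for them.

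SNRNP70 and SNRPC were also below NC with si-circ235-2, though by less than SNRPA, and unlike SNRPA both were below NC with si-circ235-1 as well. SNRNP70, whose protein binds another U1 stem loop and contacts splicing regulators, had 416 and 277 CPM in NC, 254 and 187 with si-circ235-1, and 156 and 142 with si-circ235-2. It fell by 1.22 ± 0.24 on the log2 scale with si-circ235-2 (adjusted p = 0.0049) and its value with si-circ235-1 was -0.65 (adjusted p = 0.12). SNRPC, whose protein steadies the pairing with the 5' splice site, had 222 and 159, then 136 and 139, then 112 and 87.4 CPM. It fell by 0.93 ± 0.21 with si-circ235-2 (adjusted p = 0.0089). GENCODE names 18 pseudogenes after SNRPC, and reads shared with them could have been counted either way. Without NC replicate 1 neither fall passed the test, and SNRNP70 then had -0.90 (adjusted p = 0.057). With each library's trend over length and GC content of transcripts taken out, SNRNP70 had -0.40 and was not called (adjusted p = 0.079).

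The level per kilobase of SNRPA was 0.475 and 0.396 times the median of SNRNP70 and SNRPC in NC, 0.569 and 0.552 times with si-circ235-1, and 0.332 and 0.329 times with si-circ235-2. The ratio was thus lowest in the si-circ235-2 libraries but varied far less than that of SF3B4. SNRPB2, the U2 snRNP paralog of SNRPA, had 105 and 104 CPM in NC, 123 and 135 with si-circ235-1 and 73.9 and 65.9 with si-circ235-2. It fell by 0.58 ± 0.17 with si-circ235-2 (adjusted p = 0.028), and its partner SNRPA1, which binds the same U2 stem loop, fell by 0.92 ± 0.20 (adjusted p = 0.0075). SNRPB2 was not called with library totals in place of TMM factors (-0.33, adjusted p = 0.18), with the length and GC trend removed (-0.13, adjusted p = 0.64) or without NC replicate 1 (-0.58, adjusted p = 0.12), and SNRPA1 was not called without that replicate.

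All 7 genes of the Sm ring fell with si-circ235-2, with log2 fold changes from -1.31 for SNRPD2 to -0.75 for SNRPD3 and a median of -0.98. SNRPD2 had 640.2 and 452 CPM in NC, 645 and 885 with si-circ235-1, and 253 and 187 with si-circ235-2 (-1.31 ± 0.26, adjusted p = 0.0049). SNRPB, whose product exists as the forms B and B', had 744 and 506, then 682 and 878, then 359 and 274 (-0.98 ± 0.25, adjusted p = 0.015). In both genes the si-circ235-2 libraries were below the other 4. The remaining ring genes had log2 fold changes of -1.01 for SNRPD1, -0.75 for SNRPD3, -1.14 for SNRPE, -0.87 for SNRPF and -0.94 for SNRPG. SNRPE and SNRPG have 9 and 20 pseudogenes named after them.

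The summed CPM of the Sm ring was 2234 and 1621 in NC, 2174 and 2815 with si-circ235-1, and 1034 and 828 with si-circ235-2. Under si-circ235-1 the median of the 7 log2 fold changes was 0.32 with a range from -0.18 for SNRPG to 0.72 for SNRPD3, and 0 of 7 passed the test. Without NC replicate 1 the median with si-circ235-2 was -0.77 and the calls were lost, in a fit that called far fewer of all genes. With library totals in place of TMM factors 6 of 7 fell, and SNRPD3 was not called. The share of all genes that fell there is not reported here. With the length and GC trend removed SNRPD2 had -0.83 (adjusted p = 0.0099), and SNRPB had -0.39 and was not called (adjusted p = 0.11).

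The LSm ring gave a like picture under si-circ235-2, with a median of -0.87. There 6 of 7 genes fell, where 15.7% of all genes did. LSM7 (chr19:2321517-2328620, minus strand) had the largest fall of the 52 genes, from 217 and 98.0 CPM in NC to 28.3 and 20.3 with si-circ235-2, a log2 fold change of -2.70 ± 0.33 (adjusted p = 0.0018). With si-circ235-1 it had 111 and 116 CPM, inside the NC range. LSM7 also had the widest gap between the NC replicates, and without NC replicate 1 it stood at -2.02 (adjusted p = 0.022). LSM6, the least expressed ring gene per kilobase, had 16.1 and 13.6 CPM in NC, 22.2 and 28.3 with si-circ235-1, and 8.56 and 7.17 with si-circ235-2 (-0.92 ± 0.25, adjusted p = 0.018). LSM3 had -0.78, LSM4 -1.09, LSM5 -0.81 and LSM8, the subunit that marks the nuclear ring, -0.87. LSM2 had -0.53 and an adjusted p of 0.051. Every LSm gene had its si-circ235-2 libraries below both NC libraries, where 35% of all genes did.

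Under si-circ235-1 the LSm genes had a median of 0.20, from -0.48 for LSM7 to 0.77 for LSM6, and 0 of 7 passed the test. Without NC replicate 1, LSM7 was the 1 LSm gene that fell with si-circ235-2, and the median was -0.74. With library totals in place of TMM factors 3 of 7 fell, and the share of all genes there is not reported here. The summed CPM of the 7 genes was 922 and 617 in NC, 749 and 844 with si-circ235-1, and 375 and 330.3 with si-circ235-2.

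The promoters of the 52 genes were searched, as a description, for 4 short motifs in RefSeq windows of GRCh38.p14. The windows run from 250 bases before to 50 bases after a gene's start. Of the 52 genes 47 had a window. The core CCGGAAG, bound by ETS factors, was found on either strand for 24 of the 47 (51.1%), against 22.6% of 10082 tested genes and 12.2% of 27305 genes with a window. It was as frequent in the rings (6 of 12) as outside them (18 of 35), and SNRPA had none. The E-box CACGTG was found for 2 of the 47 (4.26%, against 12.6% of tested genes), the palindromic NRF1 motif for 1 (2.13%, against 2.74%) and the YY1 motif AAGATGGCG for 4 (8.51%, against 4.70%). A gene with several windows or matches counts as 1. A match is a run of letters and not a measured site. The windows below are those of genes whose levels the text turns on, chosen to set genes that fell beside genes that rose; capitals mark the ETS core or its reverse complement CTTCCGG and, for LSM7, the YY1 motif.
SF3B4, chr1:149927811-149927840, minus strand: ccgtcttcgccCCGGAAGtggaagtcgtgc
SF3B6, chr2:24076327-24076356, minus strand: cgctgtaacagCTTCCGGcgggtcctggat
SNRPB, chr20:2470812-2470841, minus strand: agtgagctggaCCGGAAGtaggtttctacc
SNRPD2, chr19:45692361-45692390, minus strand: ggtccatgcccCTTCCGGatgtaggcaggg
SNRPB2, chr20:16729993-16730022, plus strand: tggctacgttgCTTCCGGtgcctggctccg
SF3A2, chr19:2236804-2236833, plus strand: tctcatttgccCCGGAAGtgctttctttgc
LSM7, chr19:2328550-2328579, minus strand: acggcgcgacAAGATGGCGgtgagcgcgcg
SF3A1, chr22:30356925-30356954, minus strand: aggggacggtcCCGGAAGtgcgccagtcgt
SNRNP200, chr2:96305565-96305594, minus strand: tggggcgcgacCCGGAAGcggaagggaacc
DHX8, chr17:43483947-43483976, plus strand: cgcgcgctgacCCGGAAGtgaaagctggaa
The ETS core stood in the windows of SNRPB, SF3A2 and SNRPD2, which fell with si-circ235-2, and in those of SF3A1, SNRNP200 and DHX8, which rose. It was absent from the windows of LSM7, PRPF31 and SNRNP70, which fell, and of PRPF8, which rose. Any part of the motif in these changes was not tested.

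SF3a, which links SF3b to the U2 snRNP, spanned the widest range of the 11 classes with si-circ235-2, from -1.90 to 0.58. SF3A1 (chr22:30331988-30356947, minus strand), its largest subunit, had 111 and 127 CPM in NC, 64.3 and 54.0 with si-circ235-1, and 188 and 168 with si-circ235-2. The libraries of the siRNAs lay on opposite sides of NC, with a fall of 1.01 ± 0.19 with si-circ235-1 (adjusted p = 0.016) and a rise of 0.58 ± 0.18 with si-circ235-2 (adjusted p = 0.034). SF3A1 was the 1 gene of the 50 called with both siRNAs. Between the siRNAs it was 1.59 ± 0.19 higher with si-circ235-2 (adjusted p = 0.0005). The fall did not pass the test without NC replicate 1 (-1.10), NC replicate 2 or si-circ235-1 replicate 2. Each of these fits leaves 1 library in a compared condition and called far fewer of all genes than the main fit. The rise with si-circ235-2 was 0.48 without NC replicate 1 (adjusted p = 0.21), and 0.02 (adjusted p = 0.90) once the trend of each library over length and GC content of transcripts was taken out.

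SF3A2 (chr19:2236504-2248679, plus strand), a zinc finger subunit at the U2 snRNP, had 297 and 153 CPM in NC, 133 and 101 with si-circ235-1, and 70.04 and 50.8 with si-circ235-2. All 4 siRNA libraries were below NC, and the fall of 1.90 ± 0.30 with si-circ235-2 passed the test (adjusted p = 0.0027), while -0.95 with si-circ235-1 did not (adjusted p = 0.081). Without NC replicate 1 it was -1.35 with si-circ235-2 (adjusted p = 0.030) and, once the trend over length and GC content was removed, -1.02 (adjusted p = 0.0060). Its exons overlap those of PLEKHJ1 on the other strand over 398 nucleotides, and reads there could belong to either gene. SF3A3 had 185 and 160.5 CPM in NC, 186 and 172 with si-circ235-1, and 162 and 140.2 with si-circ235-2, with log2 fold changes of 0.05 and -0.19 that did not pass the test.

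In the U5 snRNP, the genes of 2 large proteins, PRPF8 and SNRNP200, rose with si-circ235-2. PRPF8, the protein that cradles the active site, had 167 and 192 CPM in NC, 149 and 80.0 with si-circ235-1, and 319.7 and 335 with si-circ235-2 (0.87 ± 0.26, adjusted p = 0.028). SNRNP200, the helicase that unwinds U4 from U6, had 153 and 204, then 158 and 113, then 356 and 371 (1.03 ± 0.22, adjusted p = 0.0072). Both si-circ235-2 libraries exceeded the other 4 in both genes. Neither rise passed without NC replicate 1 (adjusted p of 0.19 for PRPF8 and 0.086 for SNRNP200) or with the length and GC trend removed, where they had 0.29 and 0.44 (adjusted p of 0.32 and 0.063). The other 3 U5 proteins had log2 fold changes with si-circ235-2 of -0.03 for the GTPase EFTUD2, -0.38 for PRPF6 and -0.40 for SNRNP40. With si-circ235-1 the class ran from -0.65 for PRPF8 to 0.03 for SNRNP40, and 0 of 5 passed the test.

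Among the U4/U6 and tri-snRNP proteins, PRPF31 (chr19:54115410-54131719, plus strand), which binds the U4 snRNA, had 135 and 84.8 CPM in NC, 119.4 and 129 with si-circ235-1, and 43.6 and 30.8 with si-circ235-2. It fell by 1.57 ± 0.25 with si-circ235-2 (adjusted p = 0.0027), still by 1.20 without NC replicate 1 (adjusted p = 0.034), and stood at 0.17 with si-circ235-1. Its exons overlap 855 nucleotides of genes on the other strand, TFPT among them. PRPF3 and PRPF4, which sit on the paired U4 and U6 snRNAs, had 0.01 and 0.41 with si-circ235-2, SNRNP27 had -0.52 and PRPF38A 0.18, and 0 of these 4 passed the test. With si-circ235-1 they ran from -0.49 for PRPF3 to 0.58 for PRPF38A.

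Of the 6 helicases 1 rose with si-circ235-2, and 0 of the 4 genes of the PRP19 complex and CWC22 passed the test with either siRNA. DHX8, which releases mRNA from the spliceosome, had 36.0 and 39.4 CPM in NC, 36.4 and 22.9 with si-circ235-1 and 66.4 and 65.5 with si-circ235-2, and rose by 0.81 ± 0.23 with si-circ235-2 (adjusted p = 0.023). That rise did not pass without NC replicate 1 (0.74, adjusted p = 0.16) or with the length and GC trend removed (0.20, adjusted p = 0.43). DHX38, a helicase of the second step, had 0.46 with si-circ235-2, DHX15, which takes the intron complex apart, 0.22, and DDX46, DDX23 and DHX16 had 0.03, -0.12 and -0.13. With si-circ235-1 the 6 helicases ran from -0.49 for DDX46 to 0.03 for DHX38. PRPF19, a ubiquitin ligase, and its partners CDC5L and PLRG1 had 0.21, -0.19 and 0.24 with si-circ235-2, and 0.00, -0.25 and 0.64 with si-circ235-1, none past the test. CWC22, which loads the exon junction complex, had 23.1 and 21.0 CPM in NC, 16.3 and 23.4 with si-circ235-1 and 3.36 and 15.7 with si-circ235-2, and its value of -1.20 ± 0.51 did not pass (adjusted p = 0.095) with 1 si-circ235-2 library far below the other.

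Of the factors at the 3' splice site, U2AF2, which binds the polypyrimidine tract, had log2 fold changes of -0.73 with si-circ235-1 and -0.36 with si-circ235-2. SF1, the branch point binding protein, had -0.51 and 0.00. U2AF1 had -0.37 and 0.84, the latter resting on si-circ235-2 replicate 2, with 87 counts against 31 in the other replicate. None of these values passed the test.

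Set directly against each other, si-circ235-2 gave lower values than si-circ235-1 for 21 of the 50 tested genes and higher values for 7, where 18.6% of all genes were lower and 21.1% higher (39.7% in all). The Sm and LSm rings made up 14 of the 21, with medians of -1.39 and -1.20. This comparison does not use the NC libraries as an arm, and without NC replicate 1 it gave 22 lower and 5 higher, where 17.5% of all genes were lower and 19.4% higher. PRPF31 was lower with si-circ235-2, with a log2 difference of -1.74 ± 0.25 (adjusted p = 0.00092), and so was SF3B6, with -1.63 ± 0.18 (adjusted p = 0.00045). SNRNP200 was 1.42 ± 0.23 higher (adjusted p = 0.0012) and PRPF8 1.52 ± 0.27 higher (adjusted p = 0.0017). With the length and GC trend removed these differences shrank to -1.01 for SF3B6, 0.81 for SNRNP200, 0.92 for PRPF8 and 1.01 for SF3A1, and all 4 stayed called, while SF3A2 and SNRPB2 were then not called. For SF3B4 the difference was 1.34 and for SNRPA -1.28, both as a description. SNRNP70 and SNRPC had -0.56 and -0.46 and did not pass the test (adjusted p of 0.080 and 0.10). Of the 52 genes, 31 had both si-circ235-2 libraries below both si-circ235-1 libraries and 17 above, where 33.7% and 38.4% of all genes did. Of the 50 tested genes, 15 were called between the siRNAs with NC in the middle and no overlap: 4 were below NC with si-circ235-1 and above it with si-circ235-2, as were 8.73% of all genes, and 11 the other way round, as were 6.34%.

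Other genes of the splicing pathway were counted in 7 further lists of 99 genes. With si-circ235-1, 4 of the 99 fell and 0 rose, where 3.64% and 2.24% of all genes did. PRPF40B, which joins U1 early in assembly, had 4.53 and 4.95 CPM in NC, 1.54 and 0.558 with si-circ235-1 and 7.43 and 6.84 with si-circ235-2 (-2.21 ± 0.42 with si-circ235-1, adjusted p = 0.018). With si-circ235-2, 29 of the 99 fell and 7 rose, where 15.7% of all genes fell and 15.7% rose, and their median was -0.43. The largest falls were those of SNRNP35 (-1.82 ± 0.31, adjusted p = 0.0033) and SNRNP25 (-1.49 ± 0.27, adjusted p = 0.0039), both proteins of the minor spliceosome, of which 6 of 9 listed genes fell. AQR, a helicase bound to the intron, rose by 1.08 ± 0.23 (adjusted p = 0.0062) and GEMIN5, which delivers snRNAs for Sm ring assembly, by 0.88 ± 0.20 (adjusted p = 0.0092). Without NC replicate 1, 3 of the 99 fell with si-circ235-2 and 0 rose, where 2.23% and 2.86% of all genes did.

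Of the 21 genes that fell with si-circ235-2, 17 had coding transcripts of at most 2442.5 nucleotides, the median of the 52, and the 4 that rose had longer ones. Median coding transcript length was 1154 nucleotides in the Sm ring, 2258 in the LSm ring and 1603 in the U1 snRNP, against 4548 in the U5 snRNP. The Spearman rho of log2 fold change with transcript length was 0.66 over the 52 genes with si-circ235-2, 0.47 over 14386 tested genes with a length, and -0.19 and 0.04 with si-circ235-1. These values are descriptions, since the genes share libraries. Up to that median length, 17 of 24 tested spliceosome genes fell with si-circ235-2 and 0 rose, where 30.2% and 3.33% of all 5407 such genes did. Above that length 4 of 26 fell and 4 rose, where 6.94% and 23.2% of 8979 genes did. With that trend over length and GC content taken out of every library, 18 of the 50 fell and 1 rose with si-circ235-2, where 14.1% of all genes fell and 10.8% rose, and 14 of the 25 original calls were kept. The Sm ring then had 3 of 7 genes called and a median of -0.47, and the LSm ring 5 of 7 and -0.70, and SF3B4 with si-circ235-1 still had -1.53. The part of transcript length in the remaining values was not tested.

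**Figure D4:**
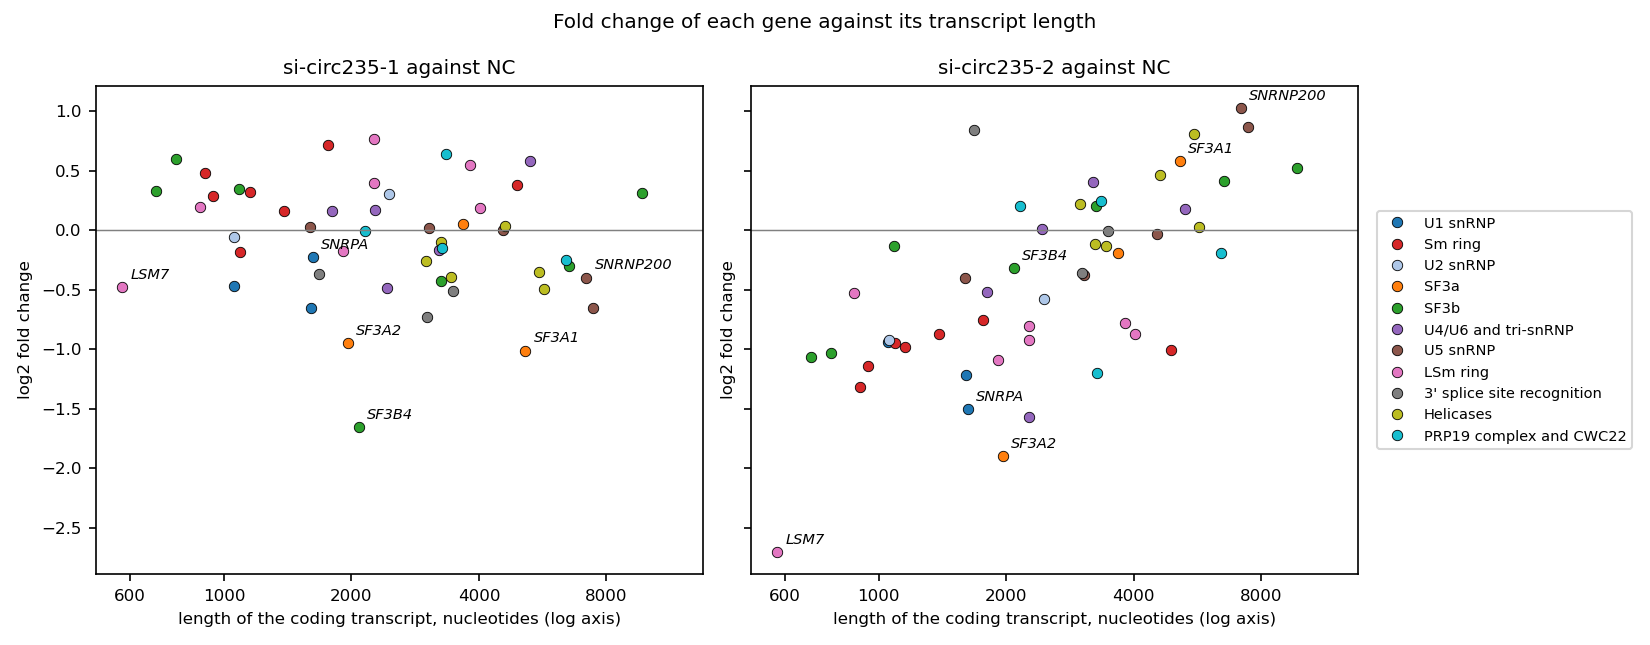
Log2 fold change of each of the 52 genes against the length of its coding transcript in nucleotides on a log axis, for each siRNA against NC, with colours for the class. With si-circ235-2 the values go from -2.70 for LSM7, the shortest, to 1.03 for SNRNP200, with rho 0.66, and with si-circ235-1 rho is -0.19 and SF3B4 lies lowest at -1.65.

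**Figure D5:**
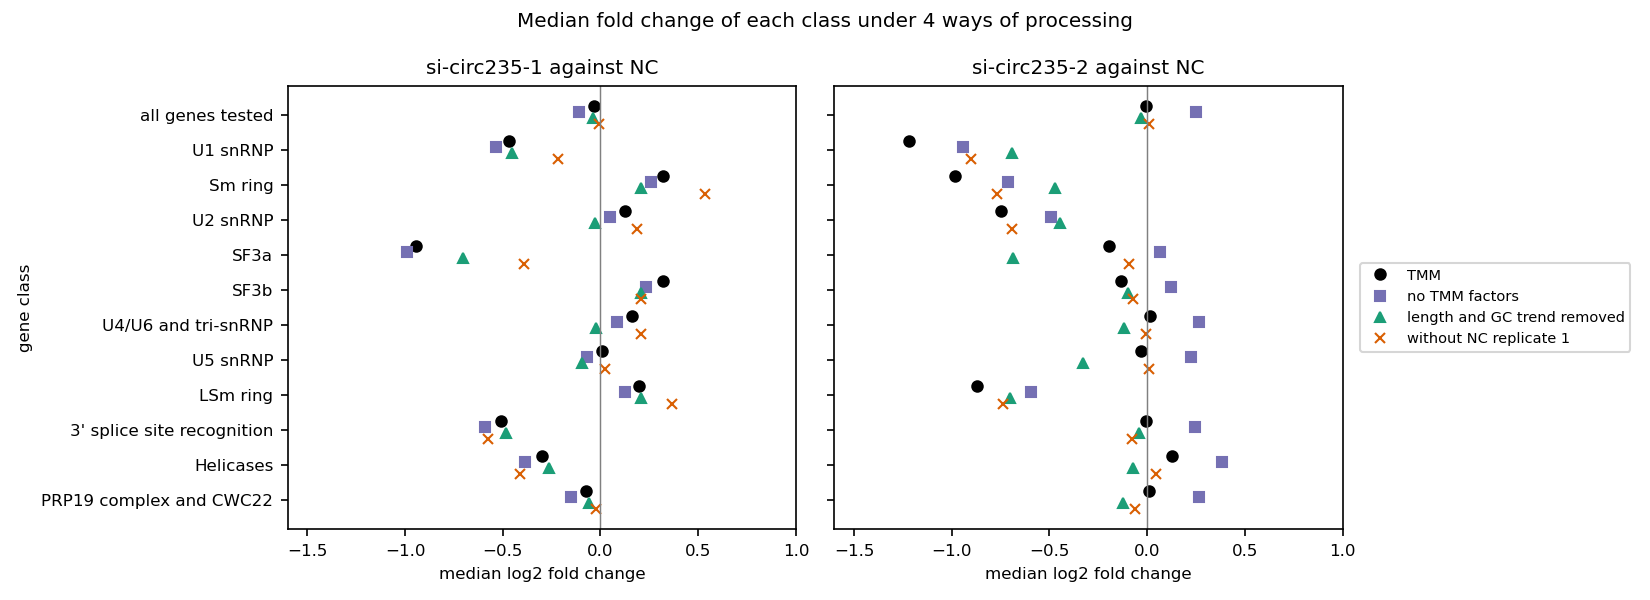
Median log2 fold change of each class and of all genes tested, for each siRNA against NC, under TMM scaling, library totals, a removed length and GC trend, and without NC replicate 1. The Sm ring with si-circ235-2 has -0.98, -0.71, -0.47 and -0.77 in that order, and the medians of SF3a, SF3b, the U5 snRNP and the 3' splice site factors with si-circ235-2 change sign with library totals, which also move all genes to 0.25.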

How the data were processed

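Polyadenylated RNA of 6 T24 libraries was sequenced, and the authors deposited raw read counts per gene, which are whole numbers and not normalized. Their processing notes name FastQC, cutadapt and STAR and the build hg38. How reads were counted, with which strand setting and annotation, is not given in the sources used here, and reads of overlapping genes or near-identical copies may be split between them. The labels of the samples gave groups and replicate numbers.

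The counts were tested with edgeR 4.0.16 (R 4.3.3) after filterByExpr by condition and TMM scaling, using the quasi-likelihood test with 1 mean per condition over all 6 libraries, so that the 3 conditions share 1 estimate of the spread. P-values were adjusted by Benjamini-Hochberg over 14415 genes, with a threshold of 0.05. Standard errors are those of the log2 fold change. The testing procedure was itself tested on simulated counts with known changes, drawn from the means and spread of these libraries. There the share of unchanged genes among its calls was above the threshold. CPM used the TMM-scaled library sizes. GENCODE release 29 (GRCh38), in which 99.5% of identifiers were found, gave positions, lengths and overlaps. Promoter windows came from RefSeq.

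The genes, lists, tests and alternatives were chosen with earlier results of these data known. Values per library are given for SF3B4, SNRPA, the rest of U1 and SF3b, SNRPB2, U2AF1, the 5 largest called changes in each direction per siRNA, genes called with both siRNAs, and the highest and lowest 3 by level. SF3A3 was added to complete its complex. Of other splicing genes, the 2 largest called changes in each direction per siRNA are named. Alternatives were DESeq2 1.42.0, library totals in place of TMM, no filter, the compared conditions alone, a replicate block, each library left out, and the removal from each library of a smooth trend over length and GC content of transcripts (splines with 5 degrees of freedom). With 2 libraries per condition, precision is limited by their number more than by depth. Single values of some listed genes are not reported here.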

Additional observations from a re-analysis of the deposited data

Results flagged for a closer look

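For 15 of the 50 tested genes, both libraries of one siRNA were above both NC libraries, both libraries of the other were below them, and the direct test between the siRNAs passed. In 4 of the 15 si-circ235-1 was below and si-circ235-2 above NC, as in 8.73% of all genes, and in 11 the order was the opposite, as in 6.34% of all genes. SF3A1, PRPF8, SF3B1 and SF3B2 were below NC with si-circ235-1 and above it with si-circ235-2, with log2 differences between the siRNAs of 1.59, 1.52, 0.71 and 0.64. The other 11 were above NC with si-circ235-1 and below it with si-circ235-2. In the Sm ring these were SNRPD2 (-1.80), SNRPD3 (-1.47) and SNRPD1 (-1.39). In the LSm ring they were LSM6 (-1.69), LSM3 (-1.33), LSM5 (-1.20), LSM8 (-1.06) and LSM2 (-0.72). SF3B6 had -1.63, SNRPB2 -0.88 and the tri-snRNP protein SNRNP27 -0.68. Of the 15, SF3B2 did not pass the direct test without either NC replicate, and SNRNP27, SF3B1, LSM2 and SF3B2 did not pass without si-circ235-1 replicate 2 or without si-circ235-2 replicate 2. SNRNP27 also failed without si-circ235-1 replicate 1, as did SF3B1, and without si-circ235-2 replicate 1, as did SF3B2. Transcript length moved with the difference over the 52 genes (rho 0.59). With the trend of each library over length and GC content removed 10 of the 15 still passed, and SNRNP27, LSM2, LSM5, SF3B2 and SNRPB2 did not. SNRPB2 then had -0.30 (adjusted p = 0.22) and SF3A1 1.01. With library totals SNRNP27 and LSM2 did not pass.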

How the results depend on the processing

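With si-circ235-1 against NC, 1 of 50 spliceosome genes was called. DESeq2 called 7, no filter on low counts 6, the 2 conditions alone 6, the replicate block 3 and the removed length and GC trend 7. A fit without 1 library leaves a condition with 1 library, and such counts are not given for this comparison. Without an NC or si-circ235-1 library, fewer of all genes were called than in the main fit. Over all genes, the main fit called 323 higher and 524 lower of 14415, and DESeq2 703 and 804. The replicate block called 369 and 568 of the same 14415 genes, and the removed trend 1005 and 1070. No filter called 611 and 1067 of 25830 genes, and the 2 conditions alone 704 and 938 of 13708. SF3A1 was called in each of these fits that kept all libraries. The 4 other splicing genes called there became 7 with DESeq2, 7 with no filter, 8 with the 2 conditions alone and 8 with the trend removed, and 0 to 7 without 1 library (0 or 1 without an NC or si-circ235-1 library). With si-circ235-2 against NC the 25 calls ranged from 4, without NC replicate 1, to 25 when 1 library was left out, and the 36 calls among other splicing genes from 3, again without NC replicate 1, to 33 (23 without si-circ235-2 replicate 2). The 46 calls of those genes between the siRNAs ranged from 27, without si-circ235-1 replicate 2, to 47. With library totals the si-circ235-2 calls were 8 higher and 16 lower, as the median of all genes moved to 0.25, and those between the siRNAs 15 higher and 16 lower. For these 2 comparisons, shares of all genes with library totals or the replicate block are not reported here. With the trend removed, SNRPF turned to 0.095 with si-circ235-2 against NC (adjusted p = 0.80), and between the siRNAs SNRPF turned to 0.13, SNRPG to 0.037 and SF3B3 to -0.50 (adjusted p = 0.018); the cause was not tested. The replicate numbers are shared across conditions, but deviations of same-numbered libraries correlated by -0.09, 0.15 and 0.14, so the numbers were not taken as pairs; the block gave 26 calls with si-circ235-2 and 30 between the siRNAs. With 18 to 87 counts, U2AF1 has the least depth of the 52.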
